A study of Mus musculus with 6 samples.

Results

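The complement genes of bone marrow mesenchymal stem cell (BMMSC) cultures were examined after knockdown of Tet1 and Tet2, the enzymes that oxidise 5-methylcytosine in DNA. The set held 9 genes, taken by symbol from the 36870 symbols of the deposited expression table: C1qa, C1qb, C1qc, C3, C4b, Cfb, Cfp, C3ar1 and C5ar1. All 9 passed the minimum of a mean of 0.1 RPKM (reads of a gene divided by its length and by the sequencing depth), as did 13266 genes in all. Adherent marrow cells from femurs and tibias of C57BL/6 mice were treated either with non-targeting siRNA (control, 3 libraries) or with siRNAs against both Tet1 and Tet2 (siTet1/Tet2, 3 libraries), and total RNA was sequenced. The labels give passage 2 for every library and no age, whereas the methods give the passage before it and call the control cells vehicle-treated. Neither source says whether the 3 libraries of a group came from separate cultures or animals, so the p-values measure only the spread between these libraries.

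Complement is a cascade of blood and tissue proteins that marks microbes and dying cells for uptake. It starts through C1q bound to antibody or debris (the classical pathway), through sugar-binding lectins, or by spontaneous turnover of C3 (the alternative pathway). All 3 routes cleave C3, whose fragment C3b coats the target and whose fragment C3a, like C5a, attracts and activates leukocytes through G-protein-coupled receptors. The liver makes most of the circulating proteins, whereas macrophages are a main source of C1q and properdin, and fibroblast-like cells can make C3, C1r, C1s and C1 inhibitor.

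The knockdown and the cell content were checked first. Tet2 was at 2.57 to 4.08 RPKM in the controls and 0.202 to 0.358 RPKM after knockdown, and Tet1 was at 0.032 to 0.098 RPKM and 0.001 to 0.01 RPKM, where 0.001 is the lowest value the table lists. Transcripts of macrophages were abundant in cultures labelled BMMSC: Csf1r, the receptor for macrophage colony-stimulating factor, averaged 499.5 RPKM in the controls and 603.9 RPKM after knockdown, and the leukocyte marker Ptprc averaged 52.6 and 53.0 RPKM. The stromal genes Col1a1 (488.4 RPKM in the controls) and Pdgfra (9.92 RPKM) were present too. Of the genes of mesenchymal surface markers, Ly6a (Sca1) averaged 152.2 RPKM and Eng (CD105) 23.75 RPKM in the controls. Nt5e (CD73) averaged only 0.911 RPKM there and Thy1 (CD90) only 0.061 RPKM. By flow cytometry, the paper found BMMSCs of control mice negative for CD45, the Ptprc protein, and positive for CD73, CD90, CD105 and Sca1. That assay measured protein, in cells other than those sequenced. The table gives no read totals. From the low values of genes with 1 transcript, the depth was estimated at 32400000 to 38500000 reads per library. Between 49.1% and 56.0% of those values lay within 0.1 of a whole read at that depth, which was chosen for the match and so is an estimate only. Replicates of a group correlated across genes with r of at least 0.992.

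Of the 9 members, 4 fell, 1 rose and 4 did not pass the test (limma on log2(RPKM + 1), Benjamini-Hochberg adjusted p under 0.05 over all genes tested). C3, Cfb and C4b, the components that are cleaved when the cascade is activated, fell to between 7.35% and 22.4% of the mean of the controls. C5ar1 fell moderately and C3ar1 rose slightly, whereas the 3 chains of C1q and properdin did not differ beyond the spread of the libraries. Among all genes tested, 29.8% were called lower and 14.7% higher, against 44.4% and 11.1% of the 9 members. The median log2 fold change was -0.15 over the members and -0.087 over all genes tested. By a further threshold, an unadjusted p under 0.05 with more than a 2-fold change (here on the log2(RPKM + 1) scale), 3 members were lower and 0 were higher, where the background was 5.63% lower and 0.95% higher. The balance over all genes depended on the scaling, since 66.9% of the called genes were lower with the deposited RPKM, 53.5% after median ratio scaling, 42.1% after quantile normalization, 74.2% with every library rescaled to 1 sum and 91.8% after scaling on a list of macrophage genes. The 4 members that fell were called lower under each of these scalings.

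**Figure D1:**
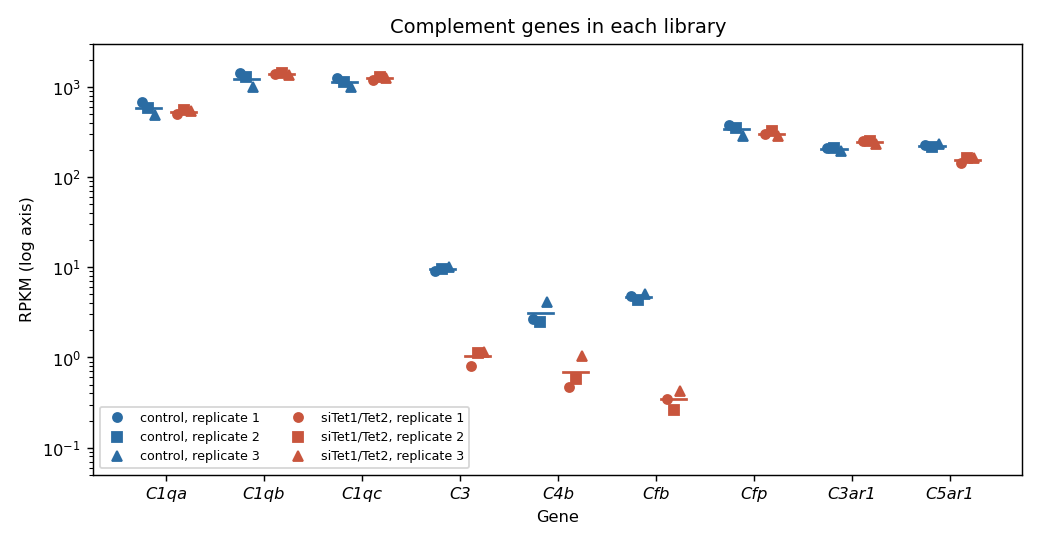
Each point is the RPKM (log axis) of 1 complement gene in 1 library, with control libraries in blue, siTet1/Tet2 libraries in red, a symbol for each replicate number and a bar at the group mean. The control and siTet1/Tet2 points of C3, C4b and Cfb lie far apart, those of C1qa, C1qb, C1qc and Cfp overlap, and those of C3ar1 and C5ar1 are separated by a small gap in opposite directions.

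The 9 genes fell into an abundant and a scarce class. In the control libraries the order of the means was C1qb, C1qc, C1qa, Cfp, C5ar1, C3ar1, C3, Cfb and C4b. Among the 13266 genes tested, C1qb ranked 22 and C1qc ranked 24 in the control libraries, and C4b ranked 9525. The control ranges of C1qb and C1qc overlapped, and those of all other neighbours in this order did not, C1qa and Cfp included. In the siTet1/Tet2 libraries C3ar1 stood above C5ar1 and C4b stood above Cfb, which reversed both orders of the control means, and the ranges of C3 and C4b overlapped. The C1q chains together made up 77.2% to 80.3% of the summed RPKM of the 9 genes in the control libraries and 81.6% to 82.2% in the siTet1/Tet2 libraries.

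C1q, the recognition subunit of the classical pathway, is built from A, B and C chains in equal parts. Their genes lie side by side on chromosome 4 of GRCm38, all on the minus strand, with C1qb from 136880129 to 136886187, C1qc from 136889804 to 136893065 and C1qa from 136895917 to 136898803, a span of 18.7 kb. C1qa was at 676.6, 584.1 and 491 RPKM in control replicates 1, 2 and 3, and at 504.2, 548.8 and 535.3 RPKM in siTet1/Tet2 replicates 1, 2 and 3. C1qb was at 1438, 1294 and 993.5 RPKM in controls 1, 2 and 3 and 1403, 1446 and 1374 RPKM in the knockdown libraries. C1qc was at 1257, 1142 and 992.9 RPKM in controls 1, 2 and 3 and 1205, 1289 and 1267 RPKM in the knockdown libraries. For all 3 chains control replicate 3 was the lowest library of its group, and the groups overlapped.

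The log2 fold change was -0.13 for C1qa (95% interval -0.40 to 0.14, adjusted p = 0.399 from limma), 0.20 for C1qb (-0.13 to 0.52, adjusted p = 0.287) and 0.15 for C1qc (-0.10 to 0.41, adjusted p = 0.283). Changes of these sizes could not be told from the spread of 3 libraries, and the interval of C1qb still holds an increase of 0.52 on the log2 scale. Control replicate 3 decided the call for C1qa, which was lower without it (log2 fold change -0.25, adjusted p = 0.0308 from limma). After scaling on the macrophage list the direction of C1qb and C1qc turned (-0.13 and -0.17), and C1qc also turned after quantile normalization (-0.068).

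The proportions of the 3 chains were compared within each library. The ratio of C1qb to C1qa within a library was 2.13, 2.22 and 2.02 in the control libraries and 2.78, 2.63 and 2.57 in the siTet1/Tet2 libraries. The ratio of C1qc to C1qa was 1.86, 1.96 and 2.02 in the control libraries and 2.39, 2.35 and 2.37 in the siTet1/Tet2 libraries, while that of C1qc to C1qb overlapped between the groups, with means of 0.919 ± 0.0701 (SD, n = 3) and 0.891 ± 0.0319 (SD, n = 3). A ratio of 2 genes in 1 library is not altered by a scaling factor for the whole library, though quantile normalization can alter it. In both ratios to C1qa every siTet1/Tet2 library exceeded every control library, and the group averages differed by 0.33 and 0.29 on the log2 scale. The 2-sided exact permutation p was 0.1 for each, the smallest that 3 libraries against 3 can give, and 0.14 when adjusted over the 7 ratios computed. All 7 ratios were chosen after the values had been seen.

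**Figure D2:**
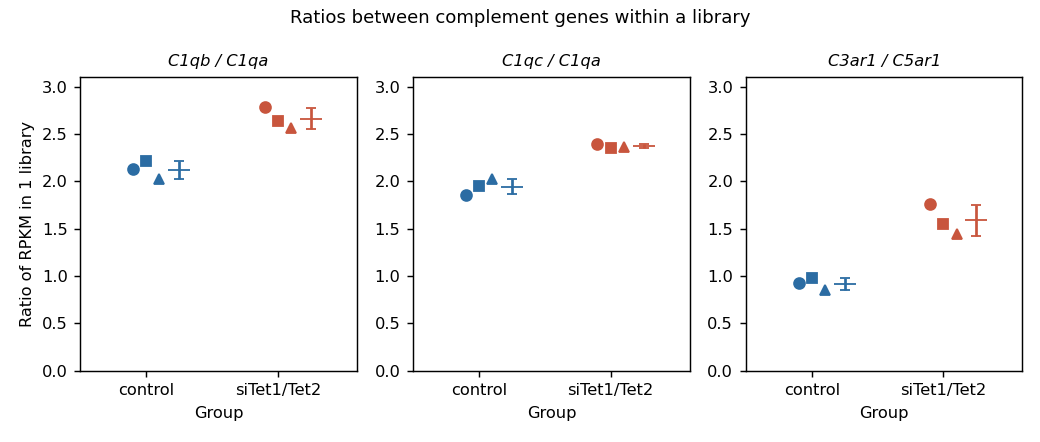
The vertical axis gives the ratio of RPKM of 2 complement genes in the same library, starting at 0. Control libraries are blue and siTet1/Tet2 libraries red, with a symbol for each replicate number, and the bar beside the points gives the mean and SD of the 3 libraries. In each of the 3 panels all siTet1/Tet2 libraries lie above all control libraries, with means of 2.12 and 2.66 for C1qb to C1qa, 1.94 and 2.37 for C1qc to C1qa, and 0.917 and 1.59 for C3ar1 to C5ar1.

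C3, the protein on which all routes of activation converge, fell in every siTet1/Tet2 library. Its gene lies on chromosome 17 from 57203970 to 57228136 on the minus strand. C3 was at 9.22, 9.62 and 10.2 RPKM in controls 1, 2 and 3 and 0.814, 1.12 and 1.16 RPKM in the knockdown libraries. The control libraries lay close together and far above the siTet1/Tet2 libraries, with means of 9.67 ± 0.486 RPKM and 1.03 ± 0.191 RPKM (SD, n = 3), a ratio of 9.36. On the log2(RPKM + 1) scale, which understates the change of genes with low values, the fold change was -2.40 with a standard error of 0.10 (limma, adjusted p = 1.72e-06). By the estimated depth, the lowest siTet1/Tet2 library still held about 160 reads of C3.

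Factor B, encoded by Cfb, is the protease that joins C3b to form the C3 convertase of the alternative pathway. Cfb was at 4.87, 4.30 and 5.01 RPKM in controls 1, 2 and 3 and 0.349, 0.263 and 0.430 RPKM in the knockdown libraries. It had the largest ratio of the group means among the 9 members, 13.6, and a log2 fold change of -2.09 with a standard error of 0.09 (limma, adjusted p = 2.00e-06). The siTet1/Tet2 values correspond to about 28 to 42 reads per library. Cfb lies on chromosome 17 from 34856374 to 34862518, and GENCODE M21 also annotates Gm20547, which runs through Cfb and its neighbour C2. Of the windows of 100 bases in the longest coding Cfb transcript, 81.0% also occur in Gm20547, for which the table lists no row.

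C4b encodes the C4 protein that, once cleaved by C1s or MASP2, binds the target and takes part in the classical and lectin C3 convertase. It was at 2.69, 2.48 and 4.10 RPKM in controls 1, 2 and 3 and 0.466, 0.572 and 1.04 RPKM in the knockdown libraries. Replicate 3 was the highest library in both groups, as it was for C3 and Cfb, and the groups did not overlap. The collagen gene Col1a1, a stromal marker, was also highest in replicate 3 of both groups. It was at 654.7 RPKM in control replicate 3 and 103.7 RPKM in siTet1/Tet2 replicate 3. A link of Col1a1 with the C4b, C3 or Cfb values was not tested. The means were 3.09 ± 0.880 RPKM and 0.692 ± 0.305 RPKM (SD, n = 3), a ratio of 4.47, with a log2 fold change of -1.27 with a standard error of 0.17 (limma, adjusted p = 0.000568). C4b lies on chromosome 17 from 34728380 to 34743882, 65.2 kb from its paralog C4a, and 16.5% of the 100-base windows of its transcript occur unchanged in C4a. Since the handling of such reads is not given in the sources used here, the division between C4b and C4a is uncertain. C4a itself was much lower, at 0.441 ± 0.0620 RPKM in the controls and 0.111 ± 0.0575 RPKM after knockdown (SD, n = 3), and the ratio of C4b to C4a overlapped between the groups.

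The components that fell were also compared with each other. The ratio of C3 to C4b was 3.42, 3.87 and 2.48 in the control libraries and 1.75, 1.96 and 1.12 in the siTet1/Tet2 libraries, and that of C3 to Cfb was 1.89, 2.23 and 2.03 in the control libraries and 2.33, 4.26 and 2.71 in the siTet1/Tet2 libraries. Neither ratio overlapped between the groups (exact permutation p = 0.1 for both, the smallest possible, and 0.14 adjusted over the 7 ratios). For C3 to Cfb the gap was narrow, from 2.23 in control replicate 2 to 2.33 in siTet1/Tet2 replicate 1. The latter rests on about 37 reads of Cfb by the estimated depth. In these libraries C4b thus fell by a smaller factor than C3 and Cfb by a larger one.

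Properdin, encoded by Cfp on the X chromosome from 20925454 to 20931555, stabilises the alternative C3 convertase that factor B forms. Cfp was at 379.0, 353.1 and 283.8 RPKM in controls 1, 2 and 3 and 303.3, 321.1 and 287.0 RPKM in the knockdown libraries. The groups overlapped and the log2 fold change of -0.15 did not pass (95% interval -0.40 to 0.11, adjusted p = 0.311 from limma). As for C1qa, control replicate 3 was the lowest control library and decided the call, since Cfp was lower without it (-0.27, adjusted p = 0.0112 from limma). In the control libraries the mean of Cfp stood at 338.6 RPKM and that of its partner Cfb at 4.73 RPKM.

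C3ar1, the receptor for C3a, was the only member that rose. It lies on chromosome 6 from 122847138 to 122856161 and was at 208.3, 210.5 and 196.6 RPKM in controls 1, 2 and 3 and 254.3, 251.9 and 234.8 RPKM in the knockdown libraries. Every siTet1/Tet2 library exceeded every control library, the mean went to 120.4% of the control mean, and the log2 fold change was 0.27 with a standard error of 0.06 (limma, adjusted p = 0.0107). The call was lost without siTet1/Tet2 replicate 1 (adjusted p = 0.0509) or replicate 2 (adjusted p = 0.0546). After scaling on the macrophage list C3ar1 turned to -0.061 (adjusted p = 0.388 from limma).

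C5ar1, the receptor for C5a, moved the other way. It lies on chromosome 7 from 16246743 to 16259540 and was at 225.5, 215.0 and 232.0 RPKM in controls 1, 2 and 3 and 144.3, 162.4 and 162.1 RPKM in the knockdown libraries. The groups did not overlap, the mean went to 69.7% of the control mean, and the log2 fold change was -0.52 with a standard error of 0.07 (limma, adjusted p = 0.000559). Within a library the ratio of C3ar1 to C5ar1 was 0.924, 0.979 and 0.848 in the controls and 1.76, 1.55 and 1.45 after knockdown, a difference of 0.79 on the log2 scale (exact permutation p = 0.1, the smallest possible, and 0.14 adjusted over the 7 ratios). The ratio did not overlap between the groups.

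Promoter windows of 250 bases before the transcription start were read from RefSeq sequences on GRCm38.p6 for the 6 members found there, C1qb, C1qc, C3, Cfp, C3ar1 and C5ar1. There were no entries for C1qa, C4b and Cfb. Shown are C1qb as an abundant gene without a called change, C3 with its large fall, and the 2 receptors that moved apart, each 5' to 3' on the minus strand, the coding strand of all 4. Capitals mark CpG, the dinucleotide in which Tet enzymes oxidise methylated cytosine. DNA methylation was not measured in these libraries. The windows end at the RefSeq start, which is not always that of GENCODE, so most of the C5ar1 window and much of the C1qc window lie inside the genes as annotated there.
C1qb, chr4:136886201-136886450: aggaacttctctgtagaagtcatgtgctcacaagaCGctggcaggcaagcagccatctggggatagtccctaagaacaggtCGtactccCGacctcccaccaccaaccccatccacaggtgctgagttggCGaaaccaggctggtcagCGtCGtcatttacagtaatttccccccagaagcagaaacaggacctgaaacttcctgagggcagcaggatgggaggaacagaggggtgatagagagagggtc
C3, chr17:57228137-57228386: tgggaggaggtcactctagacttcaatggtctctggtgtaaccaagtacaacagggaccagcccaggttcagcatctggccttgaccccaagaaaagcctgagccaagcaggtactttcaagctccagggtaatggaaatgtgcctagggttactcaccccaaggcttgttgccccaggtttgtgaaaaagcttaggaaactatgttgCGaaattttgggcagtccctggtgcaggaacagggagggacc
C3ar1, chr6:122856158-122856407: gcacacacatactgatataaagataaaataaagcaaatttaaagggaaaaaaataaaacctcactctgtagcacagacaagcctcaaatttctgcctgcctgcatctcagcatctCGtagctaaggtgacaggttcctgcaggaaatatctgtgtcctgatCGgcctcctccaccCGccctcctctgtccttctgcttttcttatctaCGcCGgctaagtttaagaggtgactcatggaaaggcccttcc
C5ar1, chr7:16259339-16259588: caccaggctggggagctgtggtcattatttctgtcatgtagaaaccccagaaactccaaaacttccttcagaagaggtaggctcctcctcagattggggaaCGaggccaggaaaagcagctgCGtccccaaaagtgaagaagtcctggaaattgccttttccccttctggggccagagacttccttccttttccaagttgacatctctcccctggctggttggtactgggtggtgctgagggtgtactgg

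The number of CpG in a window was 1 in C3, 2 each in C5ar1, C1qc and Cfp, 5 in C3ar1 and 6 in C1qb, against a median of 6 over 32851 promoters. Of all promoters 18.8% held as few as C3 and 53.7% held no more than C1qb. Neither the interferon-stimulated response element (searched on both strands as GAAA, any 2 bases and GAAA, found in 2.98% of all promoters) nor the gamma-activated site (TTC, any 3 bases and GAA, in 7.02%) matched any of the 6 windows. The core of the binding site of PU.1, a macrophage transcription factor, spelled GAGGAA, matched C1qb and C1qc and 23.3% of all promoters. A form of the kappaB site, spelled GGGA, any 4 bases and CC, matched C1qb, C1qc and C3 and 17.6% of all promoters, with 3 matches in C3, the nearest ending at the base before the start. The 2 matches in C1qb overlap each other. A match is a description of letters and not evidence of binding, and a missing match says nothing about the factor.

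The other genes of the pathway were taken from a list of components, regulators and receptors. Of 54 listed symbols in the table, 31 were expressed highly enough to be tested, of which 15 fell, 8 rose and 8 did not pass, or 48.4% lower and 25.8% higher against the background of 29.8% and 14.7% over all genes. The median log2 fold change of the 31 genes was -0.22 and that of all genes tested -0.087. With an unadjusted p under 0.05 and over a 2-fold change on the log2(RPKM + 1) scale, 6 of 31 were lower and 0 higher. The background over all genes was 5.63% lower and 0.95% higher. By the ratio of the RPKM means, C4a, Masp2, Cd55, Clu and Csmd1 also fell more than 2-fold. C8g and Vsig4 rose more than 2-fold by that ratio.

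The genes of C1r and C1s, the proteases that C1q carries, fell. C1ra went from 8.12 ± 0.745 RPKM to 2.48 ± 0.213 RPKM (SD, n = 3), C1rb from 2.79 ± 0.401 RPKM to 0.858 ± 0.204 RPKM, and C1s1 from 2.84 ± 0.640 RPKM to 0.390 ± 0.0836 RPKM, with log2 fold changes of -1.39, -1.03 and -1.45 (adjusted p = 2.2e-05, 0.000197 and 5.3e-05 from limma). Of the 100-base windows of C1ra 35.9% also occur in C1rb or the pseudogene Gm18840, and 7.9% of those of C1s1 occur in C1s2, so the division of reads between these genes is uncertain. C2, the protease of the classical convertase and the neighbour of Cfb, went from 3.80 ± 0.165 RPKM to 0.489 ± 0.286 RPKM (SD, n = 3, log2 fold change -1.71). Of the C2 windows 53.2% also occur in Gm20547. In the lectin pathway, the protease genes Masp1 and Masp2 fell, with log2 fold changes of -2.20 and -0.67. The ficolin Fcna rose from 8.03 to 12.5 RPKM on average. The lectin genes Mbl1, Mbl2, Colec10, Colec11 and Fcnb were under the minimum and not tested. The collectin Colec12 fell (-0.43), and its part in this pathway was not examined. Masp1 overlaps the protein-coding gene Rtp4 on the opposite strand, and any share of Rtp4 reads in the Masp1 values was not tested. Factor D, the protease that cleaves factor B, did not pass, with 1.41 ± 0.247 RPKM and 1.92 ± 0.361 RPKM for Cfd (SD, n = 3, adjusted p = 0.0911 from limma).

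Regulators fell or did not pass. Serping1 is the gene of C1 inhibitor, which inactivates C1r and C1s. On the log2(RPKM + 1) scale it had the lowest log2 fold change of the complement genes tested. The ratio of its means, 7.20, was smaller than those of Cfb, C3, C2 and C1s1. Serping1 went from 30.0 ± 4.78 RPKM to 4.17 ± 2.14 RPKM (SD, n = 3, log2 fold change -2.67, adjusted p = 0.000207 from limma). The membrane regulators Cd55, Cd59a and Cd59b fell by 0.81, 0.65 and 0.39 on the log2(RPKM + 1) scale, and Clu and Csmd1 by 0.66 and 0.40. That scale understates changes at low values, and Csmd1 went from 0.401 to 0.0627 RPKM, 15.6% of the control mean. By the same percentage Cd55 went to 40.1%, Clu to 43.7%, Cd59a to 61.3% and Cd59b to 61.6%. Cr1l, the gene of the rodent C3 convertase inhibitor Crry, was at 27.3 ± 2.09 RPKM in the controls and 29.0 ± 1.23 RPKM after knockdown (SD, n = 3, limma adjusted p = 0.356). Of the genes of the terminal pathway, which forms the membrane pore, C8g alone reached the minimum and rose from 0.687 to 1.72 RPKM, while C6, C7, C8a, C8b and C9 had means under 0.1 RPKM in both groups, as did Hc, the gene of C5.

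Among the other receptors, 6 of 9 rose, 1 fell and 2 did not pass, against 14.7% higher and 29.8% lower over all genes tested. Itgam and Itgb2, which together encode complement receptor 3 for C3b fragments, rose by 0.20 and 0.46 on the log2 scale (adjusted p = 0.0199 and 0.000467 from limma), and Itgax, the partner of Itgb2 in complement receptor 4, rose by 0.32. Vsig4, the C3b receptor of tissue macrophages, rose from 2.39 ± 0.408 RPKM to 5.53 ± 0.948 RPKM (SD, n = 3, log2 fold change 0.94). C5ar2, the other receptor for C5a, rose from 5.03 to 7.03 RPKM (log2 fold change 0.41, adjusted p = 0.00345 from limma), opposite to C5ar1. Lrp1 rose by 0.55 and C1qbp fell by 0.36 on the log2 scale. The number of other complement genes that rose was 5 without control replicate 1, siTet1/Tet2 replicate 2 or siTet1/Tet2 replicate 3, and 3 after scaling on the macrophage list.

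**Figure D3:**
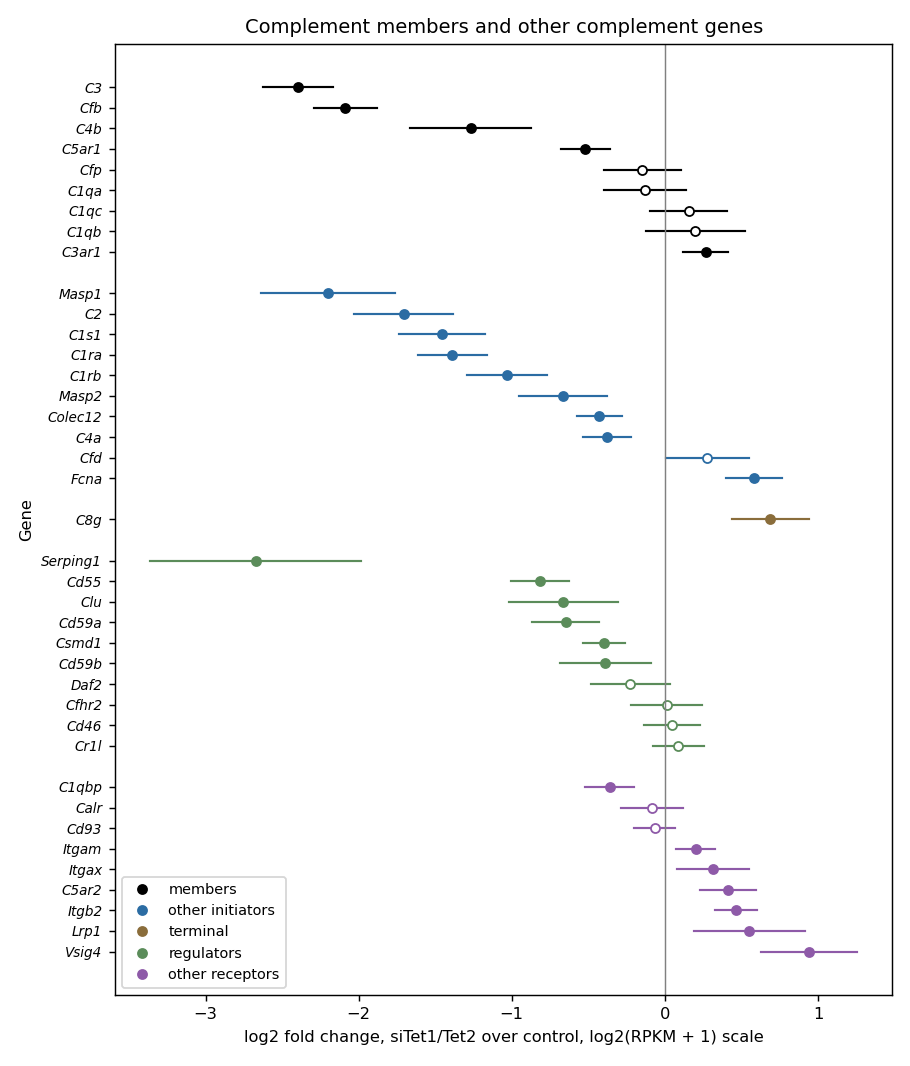
The horizontal axis gives the log2 fold change of siTet1/Tet2 over control on the log2(RPKM + 1) scale, with its 95% interval from limma, for the 9 members in black and the other complement genes reported, coloured by role. Filled points have an adjusted p under 0.05. Among the members C3, Cfb and C4b lie farthest to the left, and C3ar1 is the filled point to the right of 0. Serping1 at -2.67 and Masp1 at -2.20 are the lowest of the other genes and Vsig4 at 0.94 is the highest.

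Markers of cell types and of the interferon response also changed, in directions that differed between the lists. Of 21 macrophage genes tested, 10 rose, 4 fell and 7 did not pass, their median log2 fold change being 0.27 with a range from -0.76 to 1.36, and their summed level was 10190 to 12650 RPKM in the controls and 18230 to 21740 RPKM after knockdown. Lyz2, the lysozyme gene, which held much of that sum, went from 4439 ± 782.9 RPKM to 11320 ± 1444 RPKM (SD, n = 3). Of 14 stromal genes tested, 11 fell and 1, Vcam1, rose, with a median of -2.40, and the summed level went from 1195 to 1726 RPKM down to 206.4 to 354.1 RPKM. Thy1 and Lum were under the minimum in both groups. All 19 interferon-response genes fell, with a median of -2.87, and their summed level went from 1487 to 1616 RPKM down to 239.7 to 287.7 RPKM. The background for these counts was 29.8% of all genes tested called lower and 14.7% called higher.

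Markers of other blood cells were near the lowest listed value. Of 12 markers of neutrophils, lymphocytes, natural killer cells, red cells, mast cells and plasmacytoid cells, 11 had means under 0.1 RPKM, and the exception was Cd4, which rose from 2.56 to 8.06 RPKM on average. The abundant members, C1qa, C1qb, C1qc, Cfp, C3ar1 and C5ar1, had fold changes within the range of the macrophage list, whereas C3, Cfb and C4b had fold changes below it and within that of the interferon list. The stromal list, which ranged from -3.20 to 1.67, holds the fold changes of all 9 members. The part of the stromal cells, of the interferon response and of the knockdown in the fall of C3, Cfb and C4b was not tested. In these bulk libraries fewer cells of a type and less RNA per cell cannot be told apart.

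**Figure D4:**
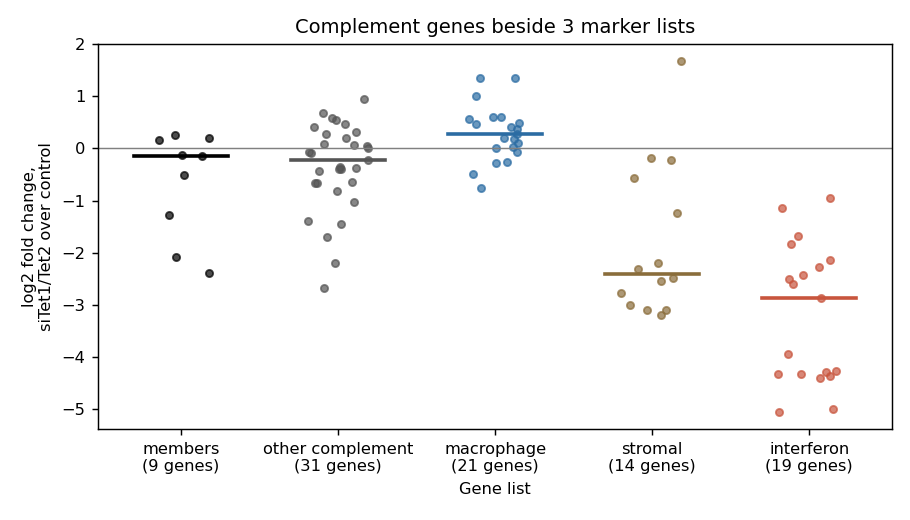
Each point is the log2 fold change (siTet1/Tet2 over control, log2(RPKM + 1) scale) of 1 gene tested, and the bar is the median of its list. Of the 9 complement members 3 lie below the lowest macrophage gene, at -0.76, and 6 within the span of the macrophage list, whose median is 0.27, while the stromal and interferon medians are -2.40 and -2.87. Points are spread sideways only to separate them.

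The genes whose profile over the 6 libraries was most like that of a member were found by the root mean square difference of log2(RPKM + 1), each gene centred on its own mean, among 11059 other genes whose mean reached 1 RPKM. The closest to C3 were Cxcl10, Apol9b and Ddx58, with differences of 0.062, 0.075 and 0.088. For Cfb they were Vdr, Slfn1 and Ifi204, with 0.065, 0.074 and 0.079, and for C4b Nfix, Adcy6 and Dlc1, with 0.035, 0.037 and 0.040. C1qb was closest to Ost4, Emp3 and Dynlt1f, C1qc to Mrpl28, Ptpro and Gcdh, and C1qa to Tmem199, Phb and Nabp2, with differences of 0.013 to 0.034. For Cfp the closest were Ubl4, Ldha and Yif1a, for C3ar1 Tram1, Idh3b and Rfk, and for C5ar1 Akap1, Hdlbp and Ube2e2, with differences of 0.015 to 0.030. Small differences are easily reached by genes that changed little. Because the log2(RPKM + 1) scale understates changes at low values, genes alike by this measure can differ in the ratio of their means. Cfb went from 4.73 to 0.347 RPKM on average, Ifi204 from 197.9 to 44.29 RPKM and Slfn1 from 3.21 to 0.038 RPKM. C3 went from 9.67 to 1.03 RPKM, Cxcl10 from 5.71 to 0.250 RPKM and Ddx58 from 40.16 to 6.50 RPKM. Between members, the most alike were C1qa with Cfp, at 0.060, and C1qb with C1qc, at 0.072.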

How the data were processed

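RNA-seq covered 3 control and 3 siTet1/Tet2 libraries of mouse BMMSCs. The authors removed adaptors, used DNASTAR Lasergene for mapping to GRCm38 and for quantification, and deposited linear RPKM values, named FPKM in their methods. How strand and multi-mapping reads were handled, and which annotation was used, is not given in the sources used here. A column of the authors' p-values was not used.

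Where a symbol was listed more than once (37 symbols), its row of highest mean stood for it. The 13266 genes whose mean reached 0.1 RPKM were compared, two-sided, on log2(RPKM + 1) with limma 3.58.1 in R 4.3.3 (lmFit, eBayes with trend), with Benjamini-Hochberg adjustment over all of them and a call at an adjusted p under 0.05. Tables, exact permutation tests and sequence searches were made in Python 3.11.15, and the limma step was tested on simulated data. The named genes were the 9 members, the called genes of a complement list, Tet1 and Tet2, marker genes and the 3 genes nearest in profile to each member. Complement genes that were not called or not tested, such as Cfd, Cr1l and C6, were named after their values were seen. 1 gene of the complement list enters the counts and is not reported here. Members and lists were chosen with earlier results of these data known. Gene positions and transcripts are from GENCODE M21 on GRCm38 and promoters from RefSeq on GRCm38.p6. Near-whole reads were too few for a count test, so precision rests on the spread of 3 libraries.

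Both groups carry replicate numbers 1 to 3. Deviations from the group means correlated with r of 0.149, 0.117 and 0.462 for the pairs of equal number, all over 0.1, so the numbers were taken as pairs in a further fit, although control 1 with siTet1/Tet2 2 gave 0.332 and control 2 with siTet1/Tet2 1 gave 0.205. Alternatives were other pseudocounts, filters, scalings, variance models, summed rows, thresholds and each library left out.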

Additional observations from a re-analysis of the deposited data

How the results depend on the processing

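C3, Cfb, C4b and C5ar1 stayed lower at a limma adjusted p under 0.05 in all 18 alternatives, with log2 fold changes of -3.23 to -2.19, -3.75 to -1.93, -2.19 to -1.06 and -0.85 to -0.42. The replicate block, which treats equal replicate numbers as pairs, changed no call of a member. With it C3ar1 stayed at 0.27 (adjusted p = 0.00513), and 4468 genes were lower and 2248 higher.

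Scaling on the macrophage list turned C1qb to -0.13, C1qc to -0.17 and C3ar1 to -0.061, and made C1qa (-0.46) and Cfp (-0.47) lower, with 0 members higher, 3 other complement genes higher, 717 of all genes higher and 7975 lower. It moved the median of all genes from -0.087 to -0.34, and quantile normalization moved it to 0.056, turned C1qc to -0.068 and gave 3607 genes higher and 2627 lower. With every library rescaled to 1 sum 5 other complement genes were higher. By an unadjusted p under 0.05 and a change over 2-fold on the log2(RPKM + 1) scale, 0 members and 0 other complement genes rose. By that threshold 6 other complement genes were lower, and of all genes 126 were higher and 747 lower.

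Leaving out 1 library gave log2 fold changes of -0.25 to -0.017 for C1qa, 0.24 to 0.30 for C3ar1 and -0.27 to -0.060 for Cfp, 0 to 1 members higher, 4 to 6 members lower and 5 to 7 other complement genes higher. C1qa and Cfp were lower without control replicate 3, and C3ar1 lost its call without siTet1/Tet2 replicate 1 or 2. The causes were not tested. Depth limits Cfb most, at about 28 reads in the lowest library.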
